A study of Mus musculus with 4 samples.

Results

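Chromatin genes were described here as a set of 74 genes. These genes belong by symbol to families that write or erase histone marks, read acetylated histones, or move nucleosomes in complexes. They were chosen by gene symbol alone: all symbols that begin with Kdm, Kmt, Setd, Hdac, Kat or Brd followed by a digit, or with Smarc, together with Ezh1, Ezh2, Eed and Suz12, and without Kdm5c, Kdm5d and Kdm6a. They were 74 of 19938 genes that had a probe set annotated to 1 symbol, and 84 probe sets measured them, of which the brightest of each gene was used. Expression was measured on Affymetrix arrays in type 2 conventional dendritic cells (cDC2), antigen-presenting cells that mainly engage CD4 T cells, sorted from mouse spleen. The wild-type (WT) group held 2 arrays of cDC2 from Zbtb46-GFP chimeras, and the Id2 knockout (Id2 KO) group held 2 arrays of cDC2 from chimeras that carried the Id2 KO as well as Zbtb46-GFP. Both groups therefore shared the Zbtb46-GFP reporter, which marks conventional dendritic cells, and both came from chimeric animals, whose donors, hosts, strain, age and sex the labels do not name. The tissue label is spleen, although the submitters' description of the design mentions a sort from marrow. The way Id2 was inactivated is not given in the sources used here. Nor do the sources state whether the 2 arrays of a group came from different animals, so every p-value below covers the spread between arrays, which may be technical in origin.

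Chromatin regulators act in pairs of opposed enzymes. Acetyltransferases and deacetylases add and remove acetyl groups, methyltransferases and demethylases add and remove methyl groups, bromodomain proteins bind acetylated lysines, and ATP-driven remodellers such as SWI/SNF open or shift nucleosomes. Polycomb repressive complex 2 (PRC2) places the repressive methyl mark on lysine K27 of histone H3 through Ezh2 or Ezh1, with Eed and Suz12 as partners without which it does not function, and Ezh2 is known to be abundant in dividing cells while Ezh1 persists in resting ones. In myeloid and dendritic cells these enzymes are known to set the accessibility of cytokine and antigen presentation genes, and Id2, which binds E proteins and keeps them from DNA, acts on the same developmental decisions.

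The array medians lay between an intensity of 128.4 and 134.4. Id2 itself was at log2 9.14 and 9.08 in WT and at 8.71 and 8.97 in Id2 KO, and its difference was -0.27 (limma, adjusted p = 0.172, not passed). The single Id2 probe set may lie outside the deleted part, in which case it checks nothing. Itgax, the CD11c gene, was at 12.84 and 12.85 in WT and at 12.81 and 12.86 in Id2 KO. Zbtb46, the locus of the shared reporter, was at 7.57 and 7.55 in WT against 6.49 and 6.59 in Id2 KO and fell by 1.02 (limma, adjusted p = 0.000135), and the other 5 of 6 general cDC markers did not pass. The cDC2 lectin genes Clec10a and Mgl2 were below the intensity filter in both groups, while the cDC2 lectin gene Cd209a was at 12.16 and 12.01 in WT and at 11.59 and 11.84 in Id2 KO. Among cDC2 markers Itgam fell by 1.00 and Clec4a3 by 0.90, and Esam rose by 0.53 (limma, adjusted p = 0.00479, 0.000316 and 0.0155). The summed intensity of 13 neutrophil markers was 18107 and 18771 in WT against 1615 and 2523 in Id2 KO, that of 11 B cell markers 1697 and 1680 against 3035 and 3488, and that of 27 cell cycle genes 13267 and 13629 against 31146 and 24424. All 12 tested neutrophil markers were lower, 10 of 11 B cell and 26 of 27 cell cycle genes higher, 6 of 8 red pulp macrophage and 3 of 5 erythroid markers lower, 3 of 5 monocyte markers lower, 4 of 8 pDC markers higher, and of 12 tested cDC2 markers 6 were lower and 2 higher, beside 5.53% of all tested genes higher and 2.52% lower. Of the tested cDC1 and of the T and NK cell markers 1 of 5 each was lower, and 1 of 3 plasma cell markers was higher. In such bulk samples fewer cells of a type and less RNA per cell cannot be told apart. Xist was at 11.96 on each WT array, against 6.67 and 6.68 on the Id2 KO arrays, so genotype and sex-linked levels cannot be told apart either. 

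Few chromatin genes differed between the groups, and those that did fell on no single class of enzyme. Of the 74 genes, 70 had a mean log2 intensity above the filter of 6.77, the 40th percentile of all genes, and were tested. Ezh2, Suz12 and Smarcd1 rose in Id2 KO, Hdac4 and Kdm7a fell, and 65 did not pass (limma, adjusted p over 11963 genes, threshold 0.05). The 3 that rose were 4.29% of the 70, beside 5.53% of all tested genes, and the 2 that fell were 2.86%, beside 2.52%. In either direction 8.04% of all tested genes passed, 661 higher and 301 lower (573 and 470 with each array centred on the median of the tested genes). The share of chromatin genes that changed was thus near the background. Their median log2 difference was 0.05, beside 0.01 over all tested genes, and it turned to -0.00 with renewed quantile normalization and to -0.01 with arrays centred on the median of the tested genes. The 3 genes that rose were each higher in Id2 KO replicate 1 than in Id2 KO replicate 2, as were all 27 cell cycle genes, 35 of the 70 tested chromatin genes and 6631 of 11963 tested genes. This order was not counted among the 661 tested genes that rose. The part of the cell cycle, neutrophil and B cell levels in the differences of chromatin genes was not tested.

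Most chromatin genes were bright on these arrays. Above the filter lay 94.6% of them, against 60% of all genes, and the median of their level percentiles was 83.6. The 4 below the filter were Brd8dc, Kdm4d, Smarca1 and Smarcd3, with means between 3.91 and 6.58 in either group and differences between 0.07 and 0.25. Their size cannot be settled at such low levels. The typical difference between groups was small: the median absolute log2 difference was 0.09 over the 70 tested genes and 0.10 over all tested genes. Between replicates the median absolute difference of the 70 was 0.08 in WT and 0.09 in Id2 KO. Among the 65 genes that did not pass, 64 had a 95% interval within 1.5-fold in either direction, with Hdac3 as the exception. The genes closest to the threshold were Hdac3 (adjusted p = 0.0591), Brd9 (0.0694), Smarcc1 (0.0729), Hdac6 (0.0772) and Hdac1 (0.0905), all higher in Id2 KO.

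**Figure D1:**
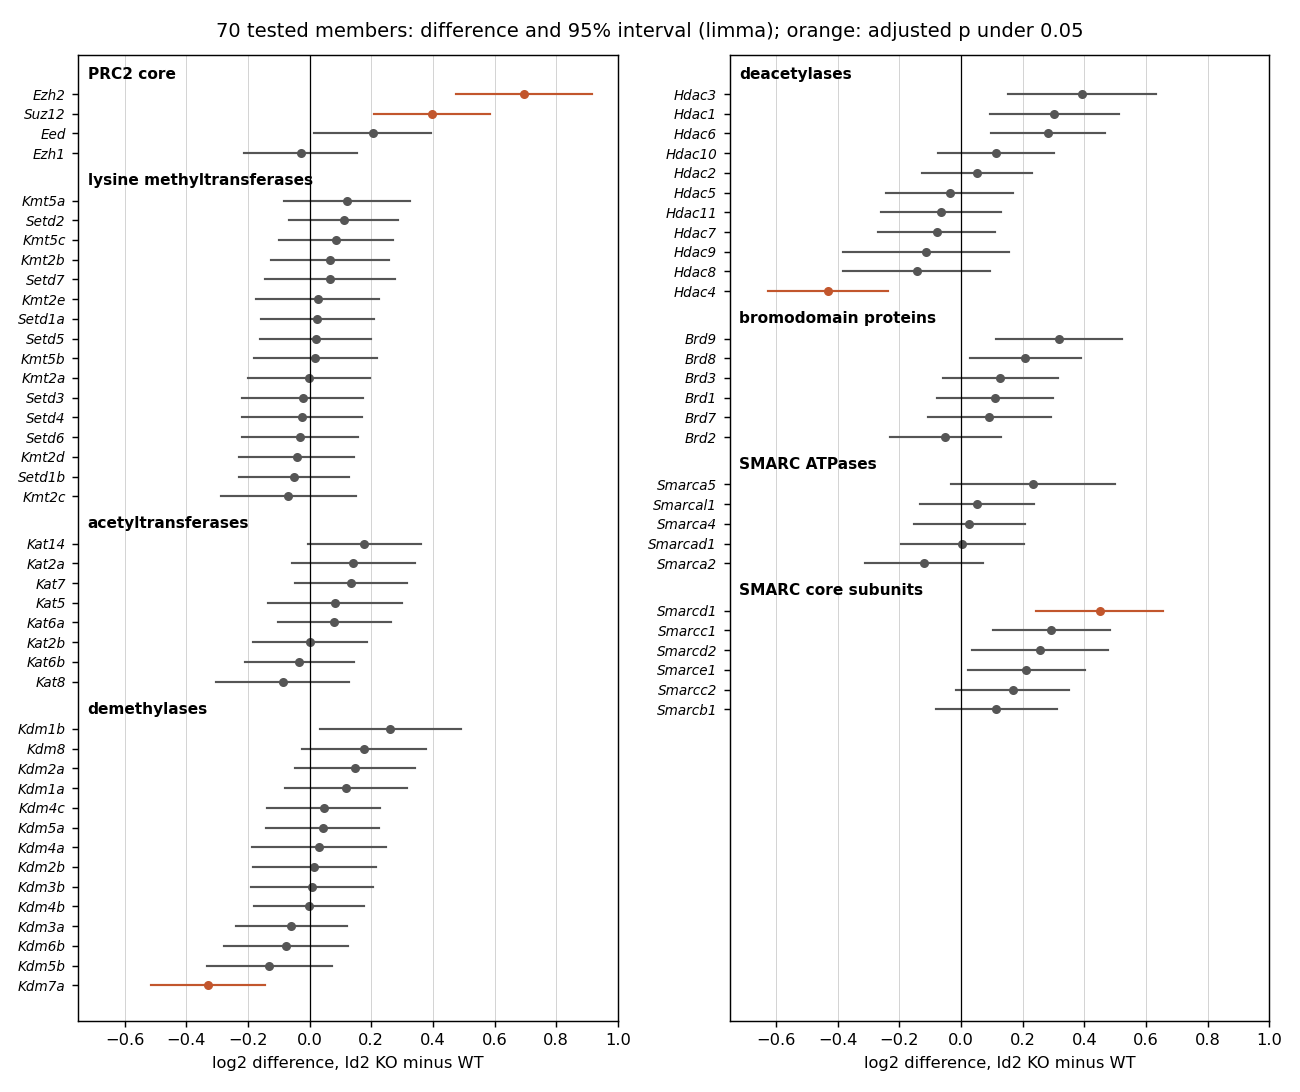
Log2 difference (Id2 KO minus WT) of the 70 tested chromatin genes on the horizontal axis, grouped by class. Points are differences with 95% intervals from limma (n = 2 arrays per group), and orange marks the 5 genes with an adjusted p under 0.05; the lysine methyltransferases lie within -0.07 to 0.12.

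The start regions of the genes that changed are shown beside that of Ezh1, the paralogue of Ezh2 that did not pass, because genes that move together are often compared at their promoters. Sequences are from RefSeq (mouse build GRCm38.p6), 250 bases before the annotated gene start, 5′ to 3′ on the gene's own strand, in lower case. Capitals mark exact matches on either strand to the E protein E-boxes CAGCTG and CACCTG, to the E2F-type sites TTTCGCGC, TTTGGCGC and TTTCCCGC, and to the CHR-type sites TTTGAA and TTCGAA of cell cycle genes, and no 2 marked matches overlap in these windows.
Ezh2, chr6:47595031-47595280, minus strand: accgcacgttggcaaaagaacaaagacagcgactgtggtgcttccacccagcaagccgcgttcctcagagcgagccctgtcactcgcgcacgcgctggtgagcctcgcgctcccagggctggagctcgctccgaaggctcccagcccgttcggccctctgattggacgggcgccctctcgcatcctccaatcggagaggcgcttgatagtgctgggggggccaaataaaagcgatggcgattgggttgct
Ezh1, chr11:101226464-101226713, minus strand: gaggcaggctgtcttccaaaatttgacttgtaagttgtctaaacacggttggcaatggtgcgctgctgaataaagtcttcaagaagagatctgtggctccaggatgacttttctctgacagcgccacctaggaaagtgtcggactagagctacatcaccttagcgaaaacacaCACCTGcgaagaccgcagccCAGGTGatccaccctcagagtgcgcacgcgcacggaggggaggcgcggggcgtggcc
Suz12, chr11:79992856-79993105, plus strand: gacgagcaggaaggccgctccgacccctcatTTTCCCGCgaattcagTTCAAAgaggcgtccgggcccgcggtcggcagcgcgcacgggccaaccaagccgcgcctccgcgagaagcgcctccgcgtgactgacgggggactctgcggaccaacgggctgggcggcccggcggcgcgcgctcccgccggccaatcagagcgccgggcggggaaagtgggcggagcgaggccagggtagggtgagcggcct
Smarcd1, chr15:99702037-99702286, plus strand: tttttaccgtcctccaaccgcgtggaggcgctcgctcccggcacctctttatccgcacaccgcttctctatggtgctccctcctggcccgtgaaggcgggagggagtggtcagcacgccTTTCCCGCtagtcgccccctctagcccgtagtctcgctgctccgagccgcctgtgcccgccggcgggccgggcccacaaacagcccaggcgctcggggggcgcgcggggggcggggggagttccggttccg
Hdac4, chr1:92180342-92180591, minus strand: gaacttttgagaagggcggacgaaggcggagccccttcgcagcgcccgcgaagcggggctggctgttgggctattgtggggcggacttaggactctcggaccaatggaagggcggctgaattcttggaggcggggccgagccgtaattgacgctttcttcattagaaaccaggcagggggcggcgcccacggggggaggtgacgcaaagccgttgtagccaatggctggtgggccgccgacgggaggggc
Kdm7a, chr6:39206774-39207023, minus strand: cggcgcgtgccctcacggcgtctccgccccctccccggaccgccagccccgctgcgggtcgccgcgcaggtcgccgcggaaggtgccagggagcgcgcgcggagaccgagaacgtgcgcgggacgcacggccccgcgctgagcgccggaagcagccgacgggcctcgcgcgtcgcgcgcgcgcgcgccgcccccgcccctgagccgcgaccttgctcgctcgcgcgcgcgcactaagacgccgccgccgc
Suz12 held TTTCCCGC starting 219 bases before the gene start and TTTGAA on the other strand from 203 bases before it. Smarcd1 held TTTCCCGC from 131 bases before its start. Ezh1 held CACCTG 77 bases and, on the other strand, 57 bases before its start, and the windows of Ezh2, Hdac4 and Kdm7a held none of these letters.

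Promoter windows were matched for 59 of the 74 genes, with 81 windows in all, since some genes have several starts. TTTCCCGC stood in 4 of them, those of Suz12, Smarcd1, Brd7 and Kmt5c, which is 4.94% of the windows beside 0.895% of all 32851 windows. Brd7 and Kmt5c did not pass the test. CAGCTG stood in 13.6% of the windows of chromatin genes and in 13% of all windows, CACCTG in 14.8% and 17.2%, and TTTGAA in 13.6% and 16.0%. TTCGAA stood in 3.70% and 1.34%, and TTTCGCGC and TTTGGCGC in none of the 81 and in 0.256% and 0.417% of all. The windows of chromatin genes had a median GC content of 63.6%, against 52.4% over all windows. A match describes letters only and shows no binding.

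Of the 4 PRC2 core genes Ezh2 and Suz12 rose and Eed and Ezh1 did not pass, beside 8.04% of all tested genes that changed. The count was 1 of 4 when WT replicate 1, WT replicate 2 or Id2 KO replicate 1 was left out. Ezh2, its main methyltransferase, had log2 levels of 10.54 and 10.58 in WT, against 11.38 and 11.14 in Id2 KO. Both Id2 KO arrays lay above both WT arrays, as they did for 27.9% of all tested genes, with the wider spread in Id2 KO. Ezh2 rose by 0.70 on the log2 scale (1.62-fold, 95% interval 0.47 to 0.92 before adjustment, n = 2 per group; limma, adjusted p = 0.00253). Its call held with each array left out, with differences from 0.57 to 0.82 and adjusted p-values from 0.000431 to 0.0246, and under the 3 other scalings. It was the only one of the 5 calls that did so.

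Suz12, the subunit that holds PRC2 together, was at 8.25 and 8.27 in WT and at 8.71 and 8.60 in Id2 KO. The groups did not overlap, and Suz12 rose by 0.40 (1.32-fold, 95% interval 0.21 to 0.58; limma, adjusted p = 0.0188). Leaving out WT replicate 1 (adjusted p = 0.137), WT replicate 2 (0.0865) or Id2 KO replicate 1 (0.0794) ended the call, with differences between 0.34 and 0.41. Eed, which binds the methyl mark and stimulates the enzyme, was at 9.75 and 9.70 in WT and at 9.99 and 9.87 in Id2 KO. Its groups did not overlap, but the difference was 0.20 (95% interval 0.01 to 0.39; limma, adjusted p = 0.208, not passed). A second, dim Eed probe set with a mean of 5.92 differed by -0.03.

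Ezh1, the alternative methyltransferase of PRC2, was at 10.67 and 10.68 in WT and at 10.61 and 10.69 in Id2 KO. The groups overlapped, and the difference of -0.03 had a 95% interval from -0.21 to 0.15 (limma, adjusted p = 0.887). The log2 ratio of Ezh2 to Ezh1 within each array moved by 0.72 from WT to Id2 KO with no overlap, a difference that was not tested. Among 7 further pairs, chosen after their values were seen, the ratio moved by 0.25 for Hdac1 to Hdac2, 0.19 for Smarcd1 to Smarcd2, 0.15 for Smarca4 to Smarca2, 0.14 for Kat2a to Kat2b and 0.13 for Smarcc1 to Smarcc2, each without overlap. Kdm1a to Kdm1b (-0.14) and Kmt5b to Kmt5c (-0.07) overlapped. Of single tested genes 27.9% were higher and 22.8% lower without overlap, and no such share was computed for ratios. An exact permutation test on 2 against 2 arrays cannot go below p = 0.333 and was not used on these ratios.

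**Figure D2:**
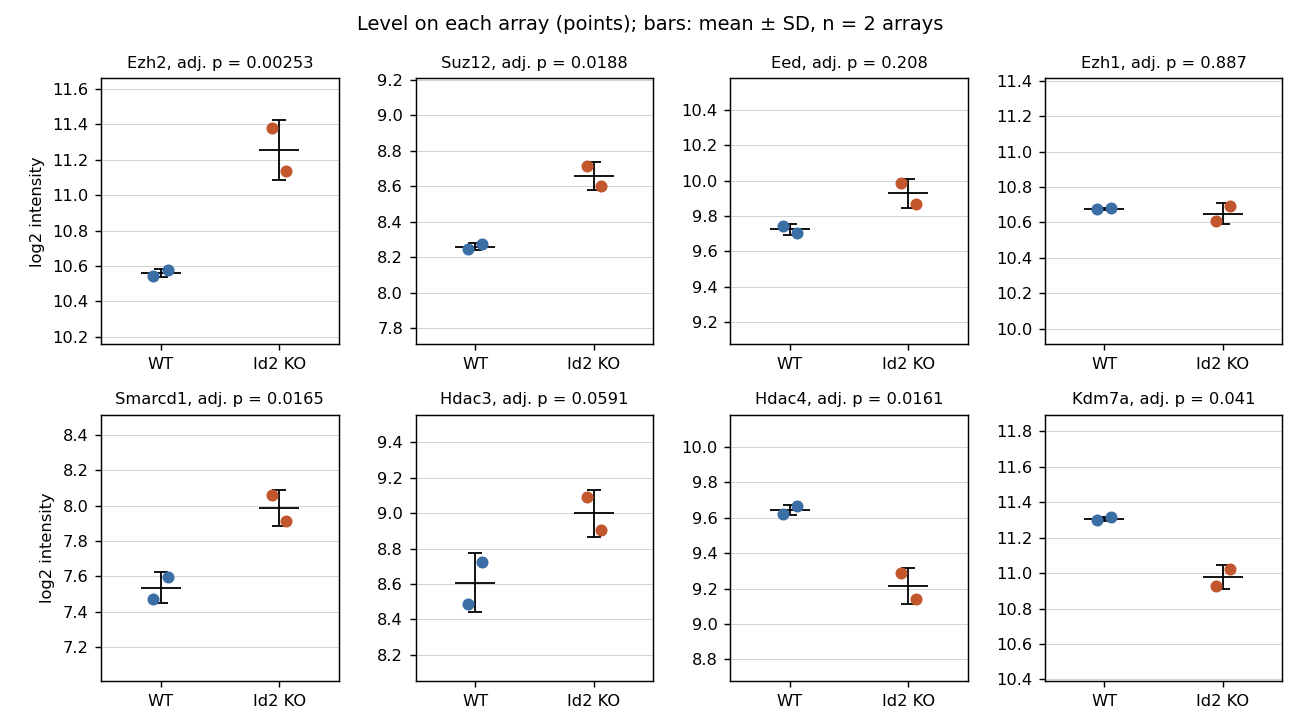
Log2 intensity of 8 chromatin genes on each array (vertical axis, 1.5 log2 units in every panel) for WT and Id2 KO. Points are single arrays and bars show mean ± SD (n = 2 per group); Ezh2, Suz12 and Smarcd1 lie higher in both Id2 KO arrays, Hdac4 and Kdm7a lie lower, and Ezh1 overlaps.

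Accessory genes of PRC2 came from a list of related genes, which was chosen with earlier results of these data known. Of 7 listed partners 3 rose and none fell, beside 5.53% of all tested genes that rose and 2.52% that fell. Phf19 rose by 0.80, Aebp2 by 0.55 and Rbbp4 by 0.50 (limma, adjusted p = 0.00161, 0.0090 and 0.0133). Phf19 brings PRC2 to chromatin, Aebp2 stabilises it, and Rbbp4 is a histone-binding protein shared with NuRD and chromatin assembly complexes. Phf19 was at 7.05 and 7.20 in WT and at 8.05 and 7.80 in Id2 KO, and its call held with each array left out. Rbbp7, the close relative of Rbbp4, differed by 0.38 (adjusted p = 0.0527), Mtf2 by 0.18, Jarid2 by -0.03 and Phf1 by -0.08, and these 4 did not pass. Of 14 tested PRC1 genes, which act beside PRC2, 2 rose: Phc1 by 0.54 and Pcgf5 by 0.53 (adjusted p = 0.0044 and 0.00394).

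None of the 16 other genes classed by symbol (Kmt and Setd) as lysine methyltransferases passed the test, beside 8.04% of all tested genes. All 16 lay within a narrow band. Their differences ran from -0.07 for Kmt2c to 0.12 for Kmt5a, with a median of 0.02 (-0.03 with renewed quantile normalization). Groups without overlap were seen in 3 of the 16, beside 27.9% of all tested genes higher and 22.8% lower without overlap. Setd2, which trimethylates lysine K36 of histone H3 on transcribed genes, was at 10.05 on each WT array, against 10.16 and 10.15 in Id2 KO. It differed by 0.11 (95% interval -0.07 to 0.29; limma, adjusted p = 0.493), and a second probe set gave 0.11 too. Kmt5a, which monomethylates histone H4 and is needed for cell division, was at 9.64 and 9.77 in WT and at 9.90 and 9.76 in Id2 KO, with overlap. Kmt2e differed by 0.03, and the MLL-type enzymes Kmt2a, Kmt2b, Kmt2c and Kmt2d by -0.00, 0.07, -0.07 and -0.04. A dimmer probe set of Kmt2d gave 0.08, and a dimmer one annotated to Setd3 gave 0.08 against -0.02 in its brightest. Setd3 is on chromosome 12, but its dimmer probe set is numbered beside those of chromosome 2 and may read another sequence. Of 12 other lysine methyltransferases on a list of related genes Nsd2 alone rose, beside 5.53% of all tested genes. None of 8 arginine methyltransferases passed, beside 8.04% of all tested genes. The shared MLL subunits, a list of 6 with Wdr5, Ash2l and Men1 among them, held no gene that passed, with differences from 0.09 to 0.30.

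No acetyltransferase passed either, beside 8.04% of all tested genes. The 8 Kat genes differed by between -0.09 for Kat8 and 0.18 for Kat14, with a median of 0.08 (0.02 with renewed quantile normalization). Kat14, a subunit of the ATAC complex, was at 9.37 and 9.39 in WT and at 9.60 and 9.51 in Id2 KO, a difference of 0.18 without overlap (limma, adjusted p = 0.259). Kat2a (GCN5) was at 9.35 and 9.51 in WT and at 9.55 and 9.59 in Id2 KO, a difference of 0.14 (adjusted p = 0.423), and its paralogue Kat2b (PCAF) differed by 0.00. Of the 18 other acetyltransferase genes and partners on the list, Crebbp and Ep300 among them, none passed.

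Among 14 tested demethylases, 1 fell and 13 did not pass, beside 2.52% of all tested genes that fell. Kdm7a, which removes methyl groups from repressive marks on histone H3, was at 11.30 and 11.32 in WT and at 10.93 and 11.03 in Id2 KO. Both Id2 KO arrays lay below both WT arrays, as they did for 22.8% of all tested genes. Kdm7a fell by 0.33 (1.26-fold lower, 95% interval -0.51 to -0.15; limma, adjusted p = 0.041). A second Kdm7a probe set was also lower, at 10.24 and 10.35 in WT against 10.12 and 10.13 in Id2 KO, a difference of -0.17. It no longer passed when WT replicate 1 (adjusted p = 0.197), WT replicate 2 (0.177) or Id2 KO replicate 1 (0.160) was left out, with each array centred on its median (0.0685), with the mean of its probe sets (0.106) and without a filter (0.0789).

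Kdm1b, a flavin-dependent demethylase of lysine K4 of histone H3, was at 7.61 and 7.85 in WT and at 7.94 and 8.04 in Id2 KO, a difference of 0.26 that did not pass (limma, adjusted p = 0.176). Its paralogue Kdm1a (LSD1) differed by 0.12. Kdm6b (JMJD3), which removes the PRC2 mark, was at 10.87 and 11.00 in WT and at 10.92 and 10.80 in Id2 KO. Its groups overlapped, and its difference of -0.08 had a 95% interval from -0.28 to 0.12. The remaining demethylases differed by between -0.13 for Kdm5b and 0.18 for Kdm8. The median over the 14 was 0.02, and it was -0.03 with renewed quantile normalization and with arrays centred on the median of the tested genes.

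Of 11 tested deacetylases 1 fell and 10 did not pass, beside 2.52% of all tested genes that fell. Their differences ran from -0.43 to 0.39. Hdac4, a class II deacetylase that shuttles between nucleus and cytoplasm and represses MEF2 factors, was at 9.62 and 9.67 in WT and at 9.29 and 9.14 in Id2 KO. The groups did not overlap, and Hdac4 fell by 0.43 (1.35-fold lower, 95% interval -0.63 to -0.24; limma, adjusted p = 0.0161). A second, dimmer Hdac4 probe set was at 7.18 and 7.25 in WT and at 7.20 and 7.26 in Id2 KO, a difference of 0.01. The probe sets of Hdac4 thus disagreed, and the mean of both gave -0.21 (adjusted p = 0.173). The call was also lost without WT replicate 1 (0.0851), WT replicate 2 (0.0978) and Id2 KO replicate 2 (0.0514).

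The nuclear class I deacetylases Hdac1 and Hdac3 were higher in both Id2 KO arrays without passing. Hdac3, the catalytic subunit of the NCoR co-repressor complexes, was at 8.49 and 8.72 in WT and at 9.09 and 8.91 in Id2 KO, a difference of 0.39 (95% interval 0.15 to 0.63; limma, adjusted p = 0.0591). It passed with each array centred on its median (0.0463) and without Id2 KO replicate 2 (0.0282). Hdac1 was at 9.79 and 9.89 in WT and at 10.23 and 10.05 in Id2 KO, a difference of 0.30 (adjusted p = 0.0905). A second Hdac1 probe set, which may read a pseudogene, gave 0.30 as well. Hdac1 passed without Id2 KO replicate 2 (0.0397). Hdac2, which shares complexes with Hdac1, differed by 0.05 (95% interval -0.13 to 0.23). The X-linked Hdac6, a tubulin deacetylase, was at 8.07 and 8.09 in WT and at 8.41 and 8.31 in Id2 KO, a difference of 0.28 (adjusted p = 0.0772), and the X-linked Hdac8 differed by -0.14. Among other class II genes, Hdac5, Hdac7 and Hdac9 differed by -0.04, -0.08 and -0.11, with overlap of the groups in each. Hdac10, of class II like Hdac6, was higher without overlap, as were 27.9% of all tested genes. Its difference of 0.11 did not pass (limma, adjusted p = 0.509).

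The co-repressor and NuRD genes that work with these deacetylases held 1 changed gene of 17 tested, beside 8.04% of all tested genes. Sap18, a subunit of Sin3 complexes, fell by 0.44 (limma, adjusted p = 0.0146). The NAD-dependent sirtuins, a separate family of deacylases, held 1 rise and 1 fall among 7, beside 5.53% and 2.52% of all tested genes. Sirt1, in the nucleus, rose by 0.37 and Sirt3, in mitochondria, fell by 0.37 (adjusted p = 0.0264 and 0.0292).

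No bromodomain gene among 6 tested passed, beside 8.04% of all tested genes. Brd9, a subunit of the non-canonical SWI/SNF complex, was at 8.38 and 8.43 in WT and at 8.81 and 8.63 in Id2 KO. The groups did not overlap, and the difference of 0.32 (95% interval 0.11 to 0.52) missed the threshold (limma, adjusted p = 0.0694), although it passed without Id2 KO replicate 2 (0.0297). Brd8, of the TIP60 complex, was at 8.21 and 8.18 in WT and at 8.43 and 8.38 in Id2 KO (difference 0.21, adjusted p = 0.172). The BET family genes Brd2 and Brd3 differed by -0.05 and 0.13.

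Of the 6 tested Smarc genes for non-ATPase subunits of SWI/SNF (Smarcb1, Smarcc1, Smarcc2, Smarcd1, Smarcd2 and Smarce1), 1 rose and 5 did not pass. This stood beside 5.53% of all tested genes that rose, and all 6 differences were positive. All 6 had groups that did not overlap, in a background where 27.9% of all tested genes were higher and 22.8% lower without overlap. All 6 differences stayed positive under the 3 other scalings, and their median of 0.23 became 0.18 with renewed quantile normalization and with arrays centred on the median of the tested genes. With either centring 5 of the 6 were without overlap. Over all 70 genes, 29 (41.4%) were higher without overlap and 8 (11.4%) lower. With renewed quantile normalization these shares were 30.0% and 18.6%, beside 23.5% and 29.0% of all tested genes.

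Smarcd1 (BAF60a), a subunit that links SWI/SNF to transcription factors, was at 7.47 and 7.60 in WT and at 8.06 and 7.91 in Id2 KO. It rose by 0.45 (1.37-fold, 95% interval 0.24 to 0.65; limma, adjusted p = 0.0165), but no longer passed when WT replicate 1 (0.147) or Id2 KO replicate 1 (0.0670) was left out. Its paralogue Smarcd2, known for its role in granulocyte formation, was at 8.03 and 8.19 in WT and at 8.45 and 8.28 in Id2 KO, a difference of 0.26 that did not pass (adjusted p = 0.173). The scaffold gene Smarcc1 was at 9.70 and 9.79 in WT and at 10.08 and 9.99 in Id2 KO (difference 0.29, adjusted p = 0.0729). Smarcc2, its paralogue, was at 11.15 and 11.21 against 11.32 and 11.38, a difference of 0.17 (adjusted p = 0.286). Smarce1 differed by 0.21 in its brightest probe set, which may read a pseudogene. Another probe set that may read a different sequence gave 0.27, and the remaining one gave 0.23. Smarcb1, a core subunit of the canonical complexes, differed by 0.11 (adjusted p = 0.527).

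Of the 5 tested ATPases of the Smarc genes none passed, beside 8.04% of all tested genes. They had 4 positive differences and 1 negative (1 and 4 with renewed quantile normalization). Smarca4 (BRG1), an ATPase of SWI/SNF, was at 10.06 and 10.08 in WT and at 10.12 and 10.07 in Id2 KO, with overlap and a difference of 0.03 (95% interval -0.15 to 0.21). Smarca2 (BRM), the alternative ATPase, was at 10.64 and 10.63 in WT and at 10.45 and 10.59 in Id2 KO, a difference of -0.12 (limma, adjusted p = 0.487). Smarca5, an ISWI ATPase, was at 7.83 and 7.77 in WT and at 8.21 and 7.85 in Id2 KO. It differed by 0.23 (limma, adjusted p = 0.306) and passed without Id2 KO replicate 2 (0.0288). Smarcad1 differed by 0.00 and Smarcal1 by 0.05. The median of the 5 tested ATPases was 0.03, and -0.01 with renewed quantile normalization. Of 17 tested other SWI/SNF subunit genes, Arid1a and Pbrm1 among them, none passed, and their median was 0.03.

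Some of these genes have close copies that share probe sequence in principle. RefSeq lists pseudogenes of Hdac1, Smarce1, Smarca5, Kat2b and Kat6b, so their probe sets may also read a copy. Hdac1 is on chromosome 4, but its second probe set is numbered among those of chromosome 17, where its pseudogene lies. Smarce1 is on chromosome 11, but its brightest probe set, the one tested, is numbered among those of chromosome 8, where its pseudogene lies. Its probe set with a difference of 0.27 is numbered among those of chromosome 5 and may also read another sequence. Another 3 probe sets that name Smarca5 together with its pseudogene and a predicted gene, and that were left out for it, differed by 0.15, 0.20 and 0.23.

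Related chromatin genes that the symbols did not select were gathered in 13 lists. These lists were chosen with earlier results of these data known, so their shares describe them and test nothing. Of their 161 tested genes, 20 rose (12.4%) and 2 fell (1.24%), beside 5.53% and 2.52% of all tested genes. Of 12 tested histone chaperone genes 6 rose, led by Asf1b (1.36 on the log2 scale, limma, adjusted p = 0.000194), Hirip3 (0.83), the replication-coupled assembly factor Chaf1b (0.71) and the FACT subunit Supt16 (0.60). Of 10 genes of DNA methylation 3 rose: Uhrf1, which recruits the maintenance methyltransferase, by 1.24, that methyltransferase Dnmt1 by 0.71, and the repair glycosylase Mbd4 by 0.35. Of 21 other remodellers 3 rose, namely Hells, which acts with DNA methylation, by 1.08, Ttf2 by 0.47 and Baz1b by 0.47. The bromodomain ATPase gene Atad2 rose by 0.91, and Nsd2, which methylates lysine K36 of histone H3, by 0.65. Of 20 related genes that rose, 17 were higher in Id2 KO replicate 1 than in replicate 2, beside 6631 of 11963 tested genes. The cell cycle list, with 26 of 27 higher and a median of 1.24, had the same order in all 27. This order was not counted among the 661 tested genes that rose, and a link to the cell cycle was not tested.

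The calls of related genes depended on single arrays in part. Asf1b, Atad2, Hells, Hirip3, Nsd2, Pcgf5, Phf19, Supt16 and Uhrf1, 9 of the 22, held with each array left out, and 21 held under the 3 other scalings, with Mbd4 as the exception. When WT replicate 1 was left out, 12 calls were lost (Aebp2, Anp32e, Baz1b, Chaf1b, Dnmt1, Mbd4, Nasp, Phc1, Rbbp4, Sap18, Sirt1 and Sirt3, adjusted p from 0.0519 to 0.268). Without WT replicate 2, 7 were lost, with Ttf2 in addition to Dnmt1, Mbd4, Nasp, Sap18, Sirt1 and Sirt3 (0.0518 to 0.159). Without Id2 KO replicate 1, Anp32e, Mbd4, Nasp, Rbbp4, Sirt1 and Sirt3 were lost (0.0512 to 0.133), and without Id2 KO replicate 2 Mbd4 alone (0.0664).

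**Figure D3:**
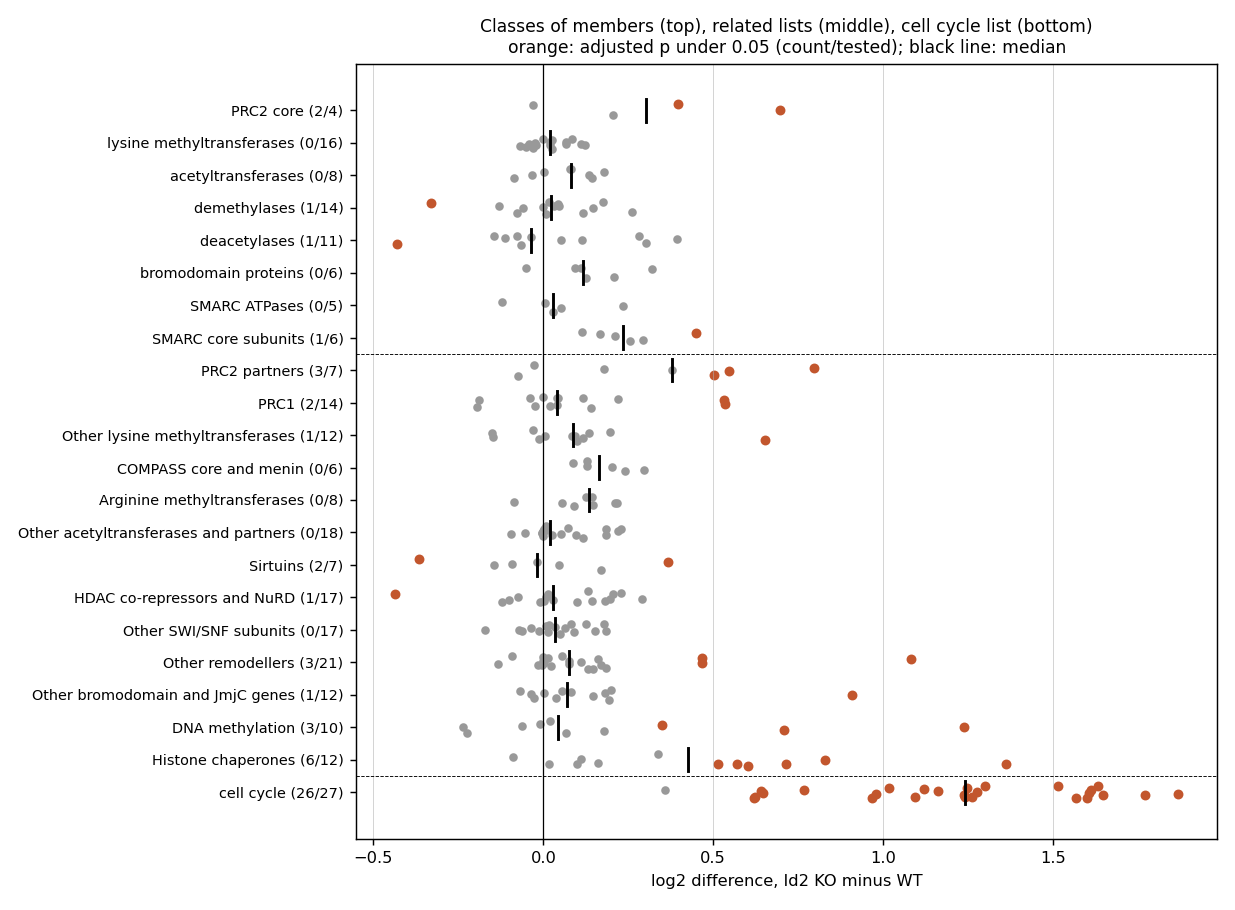
Log2 difference (Id2 KO minus WT, horizontal axis) of each tested gene in 8 classes of chromatin genes (top), 13 lists of related genes (middle) and the cell cycle list (bottom). Points are genes, orange those with an adjusted p under 0.05 (their count over the number tested stands in the label), and black lines are medians, from -0.04 to 0.30 in the classes and 1.24 in the cell cycle list.

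**Figure D4:**
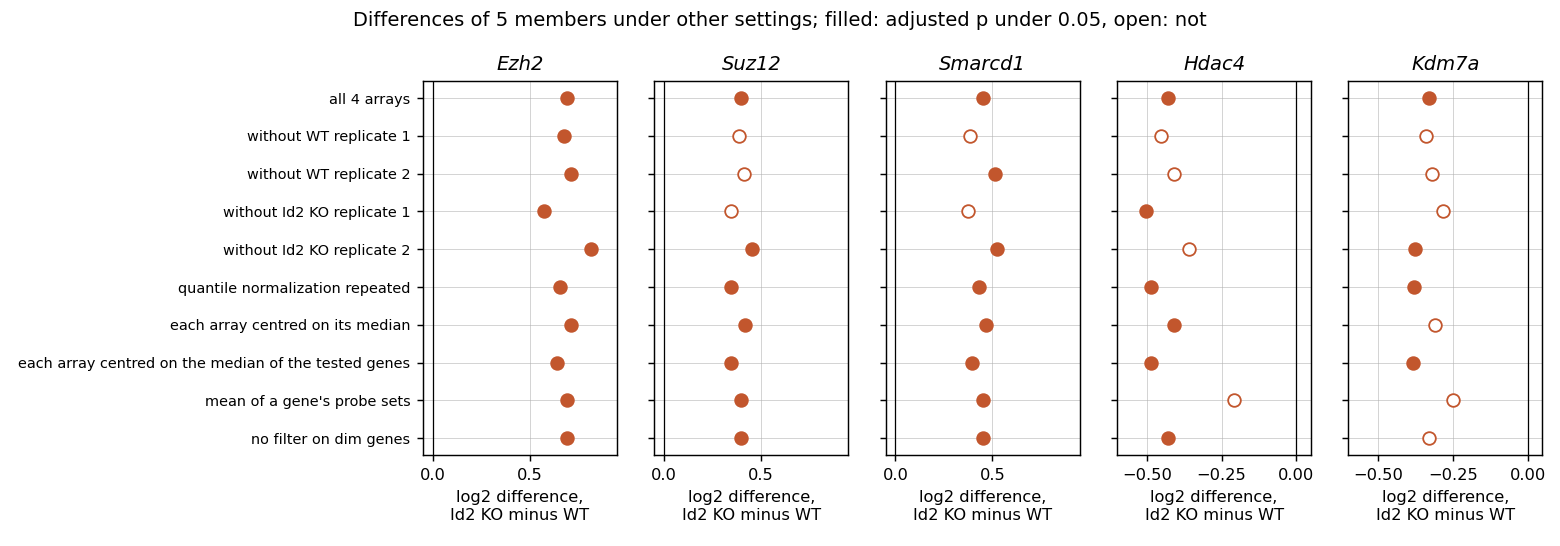
Log2 difference (Id2 KO minus WT, horizontal axes of unequal range) of the 5 genes that passed, with all 4 arrays and under 9 other settings. Filled points passed at an adjusted p under 0.05 and open points did not; Ezh2 is filled in all 10, and no difference changes sign.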

How the data were processed

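The deposited values are linear intensities, 1 for each probe set on every array. The authors used Affymetrix Expression Console and RMA, per the submitters' processing notes. RMA corrects background, equalises arrays and summarises probes on the log2 scale, so small shifts shared by many genes depend on that scaling. Genes were named from the platform annotation, and 21789 of 28853 probe sets had 1 symbol. The brightest probe set of a gene was taken, log2 intensity computed without pseudocount, and genes tested whose mean lay above the 40th percentile of all genes, with limma 3.58.1 in R 4.3.3 (lmFit, eBayes, 2 residual degrees of freedom, two-sided, Benjamini-Hochberg over 11963 genes). Intervals are 95% and unadjusted. The 2 arrays per group limit the precision. The procedure was tested on simulated data. The genes and lists were chosen with earlier results of these data known. Named were all genes that passed, the PRC2 core, the brightest and the 2 largest differences of each class, and up to 4 that passed in each related list. Other genes named in a range or beside a paralogue were added after their values were seen. Of 177 listed related genes 166 were used, since some had no single-symbol probe set or were already in the set. Alternatives were other filters, scalings, probe set means, left-out arrays, a replicate block, an intensity trend, updated symbols and exclusion of X- and Y-linked genes.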

Additional observations from a re-analysis of the deposited data

How the results depend on the processing

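The count of 3 higher and 2 lower genes, with a median difference of 0.05, was recomputed under each alternative, and no call changed sign. Leaving out 1 array gave between 1 and 7 higher and between 0 and 1 lower genes, and between 459 and 1171 changed genes overall. The lower count was 1 without a filter, 1 with each array centred on its median (which gave 4 higher) and 0 when probe sets of a gene were averaged. Medians ran from -0.01 to 0.09. Filters, scalings, trend, updated symbols and removal of X- and Y-linked genes kept all 3 higher calls. Labels number the replicates in both groups, and same-numbered arrays deviated from their group means in opposite directions (r = -0.144 across 11963 genes, which are not independent). With 2 arrays per group this cannot settle whether the numbers mark pairs of arrays. With the replicate number as a block, 1 gene was higher (Ezh2, adjusted p = 0.0103, limma) and 1 lower (Hdac4, 0.0494), with 684 changed genes overall. With the numbers crossed, chosen after seeing the data, 8 were higher, 2 lower and 1380 changed overall. Centring on the median of the tested genes was also added after seeing the data. No background signal was measured, so the differences of the 4 dim genes are not settled.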

Other observations

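Of the lysine demethylase genes on the sex chromosomes that the choice by symbol leaves out, Kdm5d and Kdm6a differed between the same arrays and Kdm5c did not pass. Kdm5d, on chromosome Y, was at log2 5.72 and 5.53 in WT and at 8.08 and 8.5 in Id2 KO, a difference of 2.66 (limma, adjusted p = 2.04e-05). Kdm6a (UTX), on chromosome X, which removes the same methyl mark as Kdm6b, was at 9.62 and 9.67 in WT and at 9.04 and 9.13 in Id2 KO and fell by 0.56 (1.48-fold lower, adjusted p = 0.00309). Its X-linked companion Kdm5c was at 9.13 and 9.39 against 9.19 and 8.95, a difference of -0.19 with overlap (adjusted p = 0.407). Xist split the arrays the same way, so these values cannot be told apart from the sex-linked difference between the groups.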
